A study of Mus musculus with 30 samples.

Results

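Livers of female offspring whose dams drank 2,4-BPS were compared with livers of female offspring whose dams drank BPSIP, by messenger RNA sequencing. The libraries were chosen by their labels, as the 3 female 2,4-BPS and the 3 female BPSIP libraries, 6 of the 30 libraries of the series. All mice were of the ICR stock, an outbred albino stock, and were sampled at 10 weeks of age. Dams of either group drank water with 10 ng/mL of their compound and 0.001% ethanol, set for an intake of 5 µg/kg daily, from the start of pregnancy until the pups were weaned, about 40 days. The 3 female control livers came from dams given the ethanol alone, so ethanol was shared by every group. The other female groups, BPS and E2 (estradiol) with 3 libraries each, came from dams given 10 ng/mL as well. They entered the choice of genes tested, the scaling and the estimate of the spread, but no contrast. Each library was made from 1 liver, the labels give 8 dams per group and litters of different dams as the source, and no sample can be tied to a named dam. The exposure was thus to the dams, and ended at weaning, before the livers were taken.

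Bisphenol S (BPS) is a pair of phenol rings joined by a sulfone, used in place of bisphenol A in plastics and thermal paper. In 2,4-BPS, a positional isomer of BPS, a hydroxyl group is moved along its ring. BPSIP is BPS with a hydroxyl group capped by an isopropyl ether, a developer of thermal paper. The comparison asks how the livers differ between daughters of dams given these related compounds at the same dose and for the same time, and it is the only pair of compounds compared here.

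The liver makes most plasma proteins, cholesterol, bile acids and glucose, and it clears drugs. Hepatocytes are most of its mass, with macrophages (Kupffer cells), sinusoidal endothelium and stellate cells among them. Levels are given as CPM, the count of a gene relative to the total of its library after scaling by trimmed mean of M values (TMM), and levels in brackets are means of 3 livers per group. Differences are log2 values of 2,4-BPS minus BPSIP, a value with ± is such a difference with its standard error, and a gene is called where its adjusted p, over all 13874 genes tested, was under 0.05.

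The 2,4-BPS libraries held 36029639 to 37633865 counts and the BPSIP libraries 34559410 to 37719069, and 4116 of the 17990 genes of the table were too low to test. The tissue label was checked on hepatocyte markers, of which 11 of the 12 listed were in the table and tested, and which summed to 139988 to 156249 CPM in 2,4-BPS livers, 113954 to 128309 CPM in BPSIP livers and 124939 to 129016 CPM in control livers. Y-linked genes summed to at most 0.579 CPM in any female library. The spread within groups was narrow (common biological coefficient of variation 0.0915). The p-values measure this spread between 3 livers per group and nothing wider. As no sample can be tied to a named dam, the part of dam, litter or inherited differences in these results was not tested.

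Of 13874 genes, 2536 were higher in 2,4-BPS than in BPSIP livers (18.3%) and 2395 were lower (17.3%). Most differences were modest: the median size of a called difference was 0.44 on the log2 scale, and 294 higher and 366 lower genes differed by at least 2-fold. All 2,4-BPS livers lay above all BPSIP livers in 3251 of the 13874 genes and below them in 3242, called or not. Lack of overlap between these groups was thus common and does not by itself set a gene apart. The direction of the small differences depends on scaling. By library totals alone the median of all genes moved to -0.15, and 1449 genes were called higher and 4060 lower. Values below use TMM, under which the median was -0.0029, and list counts by library totals are given for the lists they shift most. A plot of difference against level shows where the main gene groups lie.

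**Figure D1:**
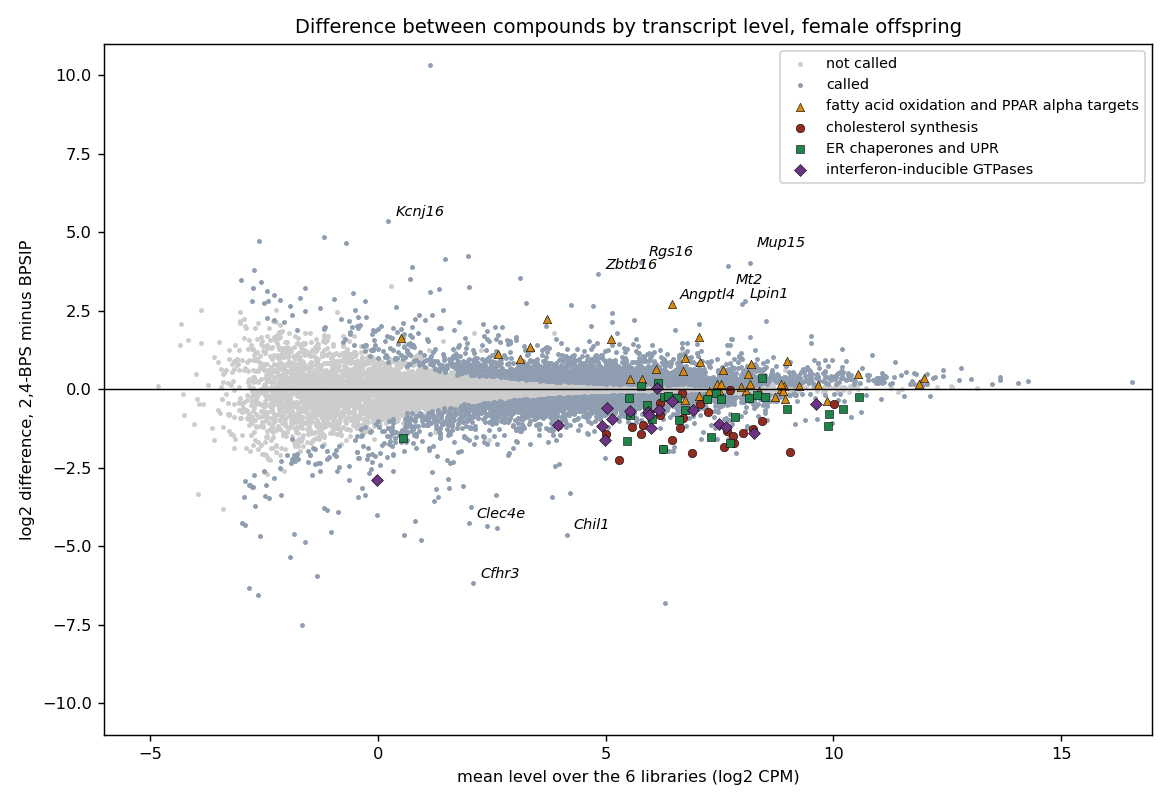
Each point is 1 of the 13874 genes tested, by its mean level over the 6 libraries (log2 CPM, x axis) and its log2 difference, 2,4-BPS minus BPSIP (y axis). Called genes are blue-grey, other genes light grey, and symbols mark the members of 4 gene lists. Members of cholesterol synthesis, the endoplasmic reticulum (ER) chaperones and the interferon-inducible GTPases lie mostly below 0, and members of fatty acid oxidation mostly above it.

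Cholesterol synthesis was lower in 2,4-BPS than in BPSIP livers almost throughout the pathway. Of its 25 tested members 23 were lower and 0 were higher, with a median log2 difference of -1.26. The pathway makes sterols from acetyl-CoA and is switched on by SREBP2, a transcription factor freed from the ER membrane when sterols are scarce. Hmgcs1, the synthase that feeds the pathway, had 213, 208 and 213 CPM in 2,4-BPS livers, against 822, 868 and 854 CPM in BPSIP livers and 133, 130.5 and 129 CPM in control livers. The 3 groups did not overlap, with BPSIP highest and control lowest (2,4-BPS minus BPSIP: log2 difference -2.0 ± 0.054, adjusted p = 3.07e-26).

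Sqle, squalene epoxidase, had 48.4, 47.7 and 44.6 CPM in 2,4-BPS livers, against 179, 197 and 195 CPM in BPSIP livers (log2 difference -2.02 ± 0.07, adjusted p = 5.19e-23). The lowest BPSIP library lay far above the highest 2,4-BPS library. Only Ebp and Tm7sf2, enzymes of late sterol steps, were not called. The largest difference of the list was that of Mvd, a decarboxylase of mevalonate (2,4-BPS 13.6 and BPSIP 65.1 CPM, log2 difference -2.26 ± 0.10). Idi1, the isomerase of isoprenoid units (-1.91 ± 0.089), Fdps, which makes farnesyl diphosphate (-1.71 ± 0.055), and Lss, which closes the sterol ring (-1.62 ± 0.069), were lower as well. So were the regulators of sterol supply: Insig1, which holds SREBP2 in the ER (-1.26 ± 0.056), and Srebf2 itself (-0.44 ± 0.057). The adjusted p was 7.74e-20 for Insig1 and 7.7e-08 for Srebf2.

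Both compounds were compared with the same control livers, so these values share the controls and are given side by side. The median of the cholesterol list was 0.42 for 2,4-BPS minus control and 1.70 for BPSIP minus control. The summed level of the list was 2965 to 3197 CPM in 2,4-BPS livers, 6212 to 6664 CPM in BPSIP livers and 2272 to 2346 CPM in control livers, with no overlap between the groups. For Hmgcs1 the log2 fold changes against control were 0.69 in 2,4-BPS and 2.70 in BPSIP livers, and for Sqle 0.82 in 2,4-BPS and 2.85 in BPSIP livers.

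Promoters from RefSeq (GRCm38.p6) are shown for a few genes whose groups stand out, so that the letters can be read beside the levels. Each stretch is the 150 bases before the annotated start, 5′ to 3′ on the gene's strand. Capitals mark short words known as binding elements, searched on both strands, and none of the marked words overlap. Shares refer to windows of 250 bases before to 50 after the start, for the 27025 genes of the table. In Hmgcs1 (chr13:119690201-119690350, plus strand) the capitals mark the sterol element core TCACCCCA, 137 bases before the start, and the reverse complement of a CCAAT box, 45 bases before it.
Hmgcs1: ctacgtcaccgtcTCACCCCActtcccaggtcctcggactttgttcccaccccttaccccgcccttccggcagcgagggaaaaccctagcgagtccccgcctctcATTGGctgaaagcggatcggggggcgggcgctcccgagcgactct
The sterol word was found in 2 of 17 cholesterol genes with a listed promoter, Hmgcs1 and Srebf2, against 1.77% of all genes. The word is strict, and other spellings of sterol elements were not searched.

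ER chaperones and heat shock proteins were also lower in 2,4-BPS than in BPSIP livers. Of 29 ER genes 25 were lower and 2 higher (median -0.51), and of 22 heat shock genes 19 were lower and 1 higher (median -0.49). ER chaperones fold secreted proteins and are induced by the unfolded protein response, while cytosolic heat shock proteins answer to heat shock factor 1. Hspa5 (BiP), the main ER chaperone, had 593, 625 and 538 CPM in 2,4-BPS livers, against 1196, 1353 and 1368 CPM in BPSIP livers and 426, 411 and 417 CPM in control livers (log2 difference -1.16 ± 0.059, adjusted p = 5.39e-18). All BPSIP livers lay above all 2,4-BPS livers, and these above all controls.

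The largest ER differences were those of Creld2, a secreted stress protein (2,4-BPS 32.6 and BPSIP 121 CPM, -1.89 ± 0.079), the chaperone gene Hyou1 (2,4-BPS 99.4 and BPSIP 324 CPM, -1.71 ± 0.058), Sdf2l1, a partner of BiP (-1.66 ± 0.10), and Manf, a secreted ER stress factor (-1.52 ± 0.055). Xbp1, a transcription factor of the response, differed less (-0.30 ± 0.054), as did the co-chaperone gene Dnajb9 (-0.24 ± 0.062). Herpud1, part of ER-associated degradation and also an ER stress target, went the other way, with 389.6, 394 and 391 CPM in 2,4-BPS and 301, 290.3 and 315 CPM in BPSIP livers (log2 difference 0.37 ± 0.051, adjusted p = 2.06e-07). The other ER member called higher was Atf6, the sensor gene (0.20 ± 0.069). The list median was 0.20 for 2,4-BPS minus control and 0.68 for BPSIP minus control.

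In the cytosol, Hsp90aa1, the inducible HSP90, had 173, 151 and 165 CPM in 2,4-BPS livers, against 375, 397 and 379.9 CPM in BPSIP livers and 139.7, 149 and 149 CPM in control livers (log2 difference -1.24 ± 0.056, adjusted p = 1.38e-19). The groups did not overlap, and the 2,4-BPS livers lay closer to control than to BPSIP. Hsph1, a nucleotide exchange factor of HSP70, averaged 67.1 CPM in 2,4-BPS and 133 CPM in BPSIP livers (-0.99 ± 0.057). The near-identical HSP70 genes Hspa1a and Hspa1b, whose reads cannot be told apart safely, had log2 differences of -1.70 ± 0.29 and -1.64 ± 0.14 at low levels (2,4-BPS 3.94 and BPSIP 12.3 CPM for Hspa1b). Fkbp5, an HSP90 co-chaperone known as a glucocorticoid target, was the only member higher in 2,4-BPS livers, at 312, 358 and 315 CPM, against 104, 110.2 and 109 CPM in BPSIP livers (log2 difference 1.61 ± 0.056, adjusted p = 6.9e-23).

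The promoter of Hspa5 (chr2:34771940-34772089, plus strand) carries CCAAT 98 and 65 bases before the start and CCACG 51 bases before it, shown in capitals. The last CCAAT and CCACG, 9 bases apart, together make the ER stress element. Hspb1, a small heat shock protein with 1.42 CPM in 2,4-BPS and 3.76 CPM in BPSIP livers (-1.40 ± 0.23), carries the heat shock element core GAANNTTC 117 and 97 bases before the start (chr5:135887769-135887918, plus strand).
Hspa5: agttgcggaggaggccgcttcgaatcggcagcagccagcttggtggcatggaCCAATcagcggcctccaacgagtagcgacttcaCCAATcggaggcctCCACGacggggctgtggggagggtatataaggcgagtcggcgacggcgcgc
Hspb1: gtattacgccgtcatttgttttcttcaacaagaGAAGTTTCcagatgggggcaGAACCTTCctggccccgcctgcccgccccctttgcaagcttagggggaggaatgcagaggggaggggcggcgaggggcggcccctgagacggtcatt
The spaced ER element was found in 9 of 24 ER genes with a listed promoter and in 0.137% of all genes. The word GAANNTTC was found in 10 of 17 heat shock genes and in 9.04% of all genes.

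**Figure D2:**
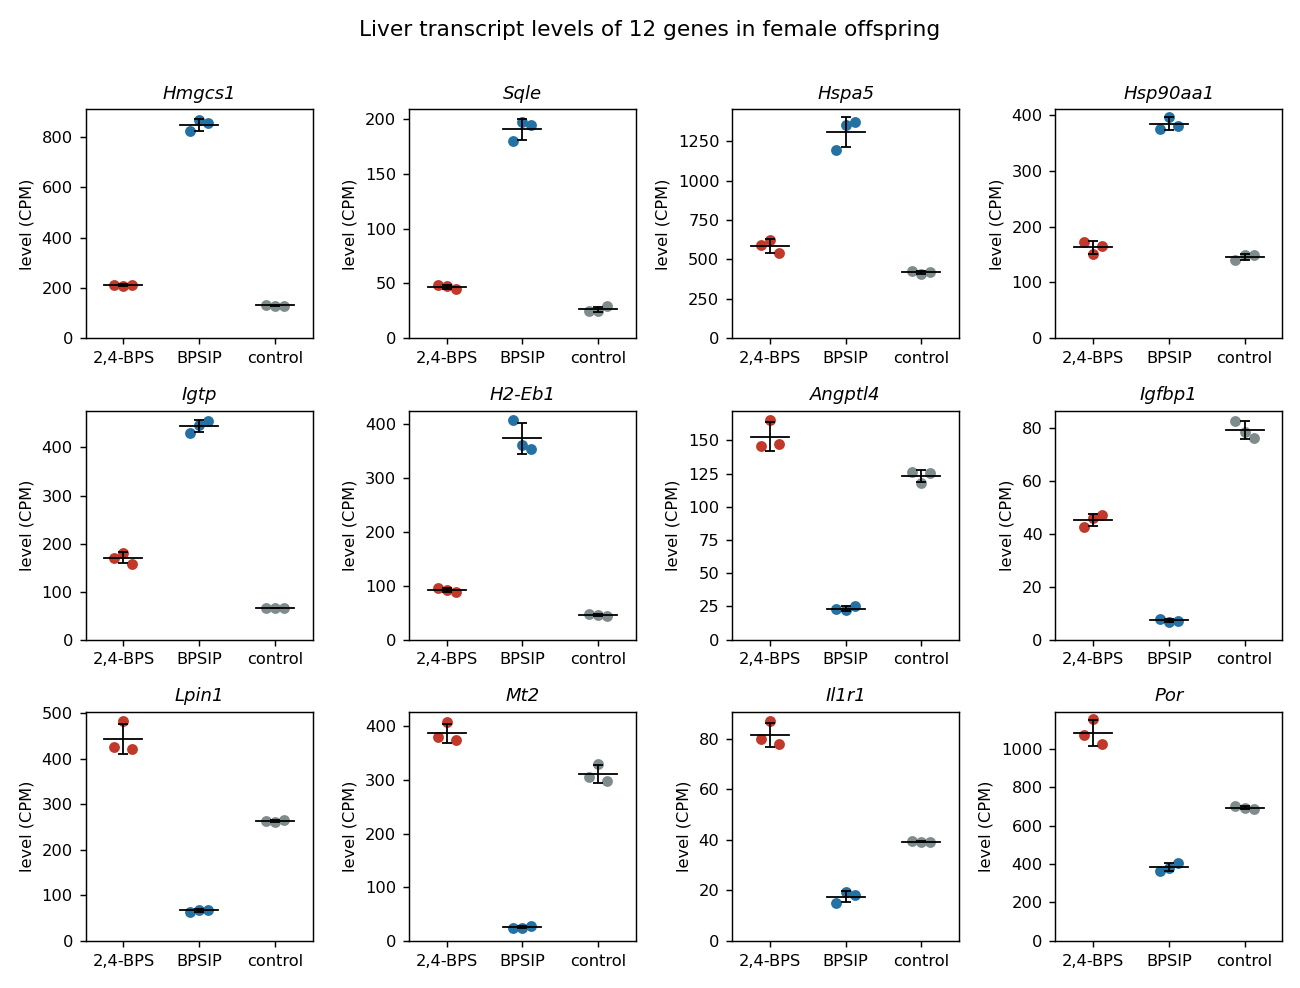
Level (CPM, y axis from 0) of 12 genes in each female liver of the 2,4-BPS, BPSIP and control groups (x axis); points are livers, the line is the mean and the bar the SD (n = 3). BPSIP livers stand above the 2,4-BPS livers for Hmgcs1, Sqle, Hspa5, Hsp90aa1, Igtp and H2-Eb1 and below them for the other 6 genes, with no overlap between these groups. Of the 13874 genes tested, 3251 were higher and 3242 lower in 2,4-BPS livers without overlap.

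Interferon-inducible genes and antigen presentation were lower in 2,4-BPS than in BPSIP livers. Of 18 interferon-inducible GTPases, which attack vacuoles of intracellular pathogens, 17 were lower and 0 higher (median -0.88). Igtp (Irgm3) had 171, 181 and 158 CPM in 2,4-BPS livers, against 431, 447 and 456 CPM in BPSIP livers and 65.1, 66.6 and 66.5 CPM in control livers (log2 difference -1.39 ± 0.057, adjusted p = 9.72e-21). Again all BPSIP livers lay above all 2,4-BPS livers, and these above all controls. Irgm2 (-1.19 ± 0.055), Irgm1 (-1.09 ± 0.053), Gbp2 (2,4-BPS 38.4 and BPSIP 89.5 CPM, -1.22 ± 0.074) and Gbp6 (2,4-BPS 15.6 and BPSIP 47.7 CPM, -1.61 ± 0.091) were lower as well, although Irg and Gbp genes are close paralogs and may share reads. Gvin1, a very large GTPase, had the largest log2 difference of the list (-2.90 ± 0.65). Tgtp2 was the tested member not called (log2 difference 0.053, 95% interval -0.084 to 0.19, adjusted p = 0.585).

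Of 35 type I interferon response genes 20 were lower and 7 higher (median -0.28, 4 higher and 23 lower by library totals alone, and 4 higher also in a fit of all 30 libraries). The chemokine genes Cxcl9 (2,4-BPS 78.5 and BPSIP 203 CPM, -1.37 ± 0.079) and Cxcl10 (2,4-BPS 6.39 and BPSIP 20.3 CPM, -1.67 ± 0.14) and the antiviral gene Ifit1 (2,4-BPS 15.3 and BPSIP 38 CPM, -1.32 ± 0.084) were lower, while Oas2, an RNA sensor, was higher (2,4-BPS 5.79 and BPSIP 3.14 CPM, 0.88 ± 0.18, adjusted p = 0.000192).

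Of 12 class II genes, which present antigen to CD4 T cells, 8 were lower and 0 higher (median -0.74). H2-Eb1, a class II beta chain, had 96.6, 91.6 and 88.9 CPM in 2,4-BPS livers, against 407, 361 and 354 CPM in BPSIP livers and 47.3, 44.8 and 44.1 CPM in control livers (log2 difference -2.02 ± 0.082, adjusted p = 5.11e-16). H2-Aa (2,4-BPS 102 and BPSIP 238 CPM, -1.23 ± 0.062), the invariant chain gene Cd74 (2,4-BPS 542 and BPSIP 1049 CPM, -0.95 ± 0.057), H2-Ab1 (-0.70 ± 0.062) and Ciita, the class II transactivator (2,4-BPS 8.47 and BPSIP 19.8 CPM, -1.23 ± 0.13), were lower too. H2 genes are polymorphic in an outbred stock, and reads of variant alleles may map unevenly.

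Of 23 class I and immunoproteasome genes 16 were lower and 3 higher (median -0.37, 1 higher and 19 lower by library totals alone). The class I heavy chain gene H2-K1 was higher, with 1019, 1111 and 1007 CPM in 2,4-BPS and 571, 576 and 603 CPM in BPSIP livers (log2 difference 0.84 ± 0.058, adjusted p = 1.71e-14), and the class I gene H2-T22 was lower (-0.73 ± 0.058). Ubd (FAT10), a ubiquitin-like protein induced by interferon gamma, had 1.23, 0.838 and 1.11 CPM in 2,4-BPS livers, against 13, 9.46 and 10.7 CPM in BPSIP livers (log2 difference -3.38 ± 0.26, adjusted p = 4.08e-13).

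Against the shared controls the median of the GTPase list was 1.00 in 2,4-BPS and 1.81 in BPSIP livers. That of the class II list was 0.90 in 2,4-BPS and 1.75 in BPSIP livers.

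Promoters of Igtp (chr11:58199406-58199555, plus strand) and Gbp2 (chr3:142620513-142620662, plus strand) carry the interferon element core TTCNNTTTC, 34 bases before the start of Igtp, on the reverse strand, and 58 bases before that of Gbp2. The gamma-activated site TTCNNNGAA lies 45 bases before the start of Igtp. Capitals mark both words.
Igtp: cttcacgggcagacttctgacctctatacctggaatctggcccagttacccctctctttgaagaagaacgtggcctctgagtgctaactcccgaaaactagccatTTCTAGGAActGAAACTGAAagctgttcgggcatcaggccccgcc
Gbp2: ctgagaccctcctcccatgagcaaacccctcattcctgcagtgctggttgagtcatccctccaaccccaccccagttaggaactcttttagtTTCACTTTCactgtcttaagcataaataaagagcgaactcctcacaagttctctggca
The interferon core was found in 10 of 11 GTPase genes and 17 of 26 type I interferon genes with a listed promoter, against 9.76% of all genes. The gamma-activated site was found in 6 of 11 GTPase genes and 9.55% of all genes.

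Markers of immune cells differed between the same groups. Of 22 Kupffer cell and macrophage markers 15 were lower in 2,4-BPS livers and 1 was higher (median -0.30, 0 higher and 18 lower by library totals alone). Their sum was 2376 to 2538 CPM in 2,4-BPS livers, 2865 to 3200.2 CPM in BPSIP livers and 1739 to 1802 CPM in control livers, and none was at 0. Clec4f and Adgre1, which define Kupffer cells, did not pass the test. Clec4f had 353, 364 and 383 CPM in 2,4-BPS and 369, 316 and 317 CPM in BPSIP livers (log2 difference 0.13, 95% interval 0.018 to 0.25, adjusted p = 0.065). It was called higher without BPSIP replicate 1 (adjusted p = 0.00326), and its log2 difference was -0.017 by library totals. Adgre1 (F4/80) had 65.9, 60.6 and 67.1 CPM in 2,4-BPS and 75.7, 65.9 and 71.6 CPM in BPSIP livers (log2 difference -0.14, 95% interval -0.29 to 0.015, adjusted p = 0.161), and it was called lower by library totals (adjusted p = 0.00939). Among the lower markers, Lyz2, lysozyme of macrophages and granulocytes, averaged 169.6 CPM in 2,4-BPS and 379.7 CPM in BPSIP livers (-1.16 ± 0.068), the scavenger receptor gene Marco 85.4 CPM in 2,4-BPS and 155 CPM in BPSIP livers (-0.86 ± 0.068) and the Fc receptor subunit gene Fcer1g 16.2 CPM in 2,4-BPS and 29.3 CPM in BPSIP livers (-0.85 ± 0.10).

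Of 14 T and NK cell markers 7 were lower and 0 higher (median -0.85), among them Ccl5 (2,4-BPS 4.71 and BPSIP 15.6 CPM, -1.73 ± 0.15), Cd4 (2,4-BPS 2.4 and BPSIP 7.72 CPM, -1.68 ± 0.24) and Il2rb (2,4-BPS 5.82 and BPSIP 9.75 CPM, -0.75 ± 0.14). Their sum was 29.9 to 32.4 CPM in 2,4-BPS livers, 58.1 to 64.9 CPM in BPSIP livers and 27.9 to 32 CPM in control livers. Of 13 neutrophil markers 7 were lower (list median -0.82), Camp, Ngp and S100a8 among them (-3.42 ± 0.38, -1.86 ± 0.18 and -1.32 ± 0.17), and 1 was higher, Lcn2, which hepatocytes also make. Of 9 B and plasma cell markers 2 were lower and 0 higher (median 0.20). In whole liver RNA, fewer cells of a type and less RNA per cell cannot be told apart, and the part of these cells in the interferon and class II differences was not tested.

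Lipid genes did not move as a block. Of 29 genes of fatty acid and triglyceride synthesis 14 were higher in 2,4-BPS livers and 14 were lower (median 0.15). Lower were enzymes of the chain from citrate to palmitate: Acly, ATP citrate lyase (2,4-BPS 180.2 and BPSIP 324 CPM, -0.85 ± 0.052), and Fasn, fatty acid synthase, with 253, 261 and 242 CPM in 2,4-BPS livers, against 469, 498 and 517 CPM in BPSIP livers and 243, 227 and 232 CPM in control livers (log2 difference -0.97 ± 0.058, adjusted p = 3.51e-16). Pnpla3, a lipase of lipid droplets known as a SREBP1c target, had 5.13, 4.16 and 5.8 CPM in 2,4-BPS livers, against 25.3, 27.1 and 26.7 CPM in BPSIP livers (log2 difference -2.39 ± 0.17, adjusted p = 9.37e-13), and Srebf1 was lower by less (2,4-BPS 149 and BPSIP 194 CPM, -0.38 ± 0.054).

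Higher in 2,4-BPS livers was Lpin1, a phosphatidate phosphatase and coactivator, with 426, 481 and 421 CPM in 2,4-BPS livers, against 63.1, 68.3 and 68.8 CPM in BPSIP livers and 264, 261 and 265 CPM in control livers (log2 difference 2.73 ± 0.079, adjusted p = 1.2e-19). The groups did not overlap, and BPSIP was the lowest. Its relative Lpin2 (2,4-BPS 296 and BPSIP 111 CPM, 1.41 ± 0.066), the desaturase gene Scd1 (2,4-BPS 1309 and BPSIP 689.6 CPM, 0.92 ± 0.057), Acacb, whose product malonyl-CoA curbs fatty acid oxidation (2,4-BPS 155 and BPSIP 66.3 CPM, 1.23 ± 0.06), Thrsp (2,4-BPS 992 and BPSIP 522 CPM, 0.93 ± 0.056) and Mlxipl (ChREBP), a glucose-sensing transcription factor (2,4-BPS 141 and BPSIP 94.5 CPM, 0.58 ± 0.062), were higher too.

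In the list of fatty acid oxidation genes, which includes targets of PPAR alpha, 26 of 40 were higher and 5 lower (median 0.26, 20 higher and 11 lower by library totals alone). PPAR alpha is the receptor that turns on fatty acid use in fasting. Its gene Ppara averaged 374 CPM in 2,4-BPS and 212 CPM in BPSIP livers (0.82 ± 0.074). Angptl4, an inhibitor of lipoprotein lipase, had 146, 165 and 147 CPM in 2,4-BPS livers, against 22.8, 22.1 and 25.3 CPM in BPSIP livers and 126, 118 and 125 CPM in control livers (log2 difference 2.71 ± 0.067, adjusted p = 2.51e-27). Cpt1a, the gate for fatty acids into mitochondria (2,4-BPS 658 and BPSIP 353 CPM, 0.90 ± 0.056), Pdk4, which spares glucose (2,4-BPS 14.6 and BPSIP 5.78 CPM, 1.34 ± 0.12), and the fasting hormone gene Fgf21 (2,4-BPS 2.16 and BPSIP 0.692 CPM, 1.64 ± 0.24) were higher.

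The acyl-CoA thioesterase genes Acot1 (2,4-BPS 52.3 and BPSIP 17.3 CPM, 1.59 ± 0.073) and Acot3 (2,4-BPS 203 and BPSIP 63.4 CPM, 1.68 ± 0.055) were higher as well, as near paralogs that may share reads. In the Cyp4a cluster of fatty acid hydroxylases the genes split: Cyp4a14 (2,4-BPS 173 and BPSIP 95.5 CPM, 0.86 ± 0.059) and Cyp4a31 (2,4-BPS 21.8 and BPSIP 4.63 CPM, 2.24 ± 0.11) were higher and Cyp4a10 was lower (2,4-BPS 803 and BPSIP 1040.5 CPM, -0.37 ± 0.075). Ehhadh, a peroxisomal enzyme and textbook PPAR alpha target, was slightly lower (2,4-BPS 385 and BPSIP 456 CPM, -0.24 ± 0.049). Against the shared controls the list median was -0.26 in 2,4-BPS and -0.70 in BPSIP livers.

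Of 29 lipoprotein and sterol efflux genes 15 were higher and 7 lower (median 0.16, 9 higher and 9 lower by library totals alone). Apoa5, an activator of triglyceride clearance, was higher (2,4-BPS 1625 and BPSIP 861 CPM, 0.92 ± 0.058). Angptl8, a lipase inhibitor of the fed state, had 11.1, 12.7 and 10.8 CPM in 2,4-BPS livers, against 49.3, 50.4 and 56.9 CPM in BPSIP livers (log2 difference -2.18 ± 0.092, adjusted p = 2e-20). Vldlr, the VLDL receptor gene, had 2.54, 3.2 and 2.53 CPM in 2,4-BPS livers, against 11.4, 12.3 and 11.5 CPM in BPSIP livers and 17.6, 16.6 and 17 CPM in control livers, so that 2,4-BPS was the lowest of the 3 groups (log2 difference -2.09 ± 0.13, adjusted p = 5.42e-16).

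Genes of glucose handling and insulin signalling were mostly higher in 2,4-BPS than in BPSIP livers: of 32 members 21 were higher and 5 lower (median 0.25, 15 higher and 6 lower by library totals alone). Igfbp1, a secreted IGF-binding protein that insulin suppresses, had 42.7, 46.2 and 47.2 CPM in 2,4-BPS livers, against 7.98, 6.56 and 7.24 CPM in BPSIP livers and 82.9, 78.6 and 76.3 CPM in control livers (log2 difference 2.64 ± 0.072, adjusted p = 4.16e-26). G6pc, glucose-6-phosphatase, the last step of glucose release, had 189.7, 191 and 179 CPM in 2,4-BPS livers, against 62.2, 73.2 and 72.1 CPM in BPSIP livers and 376, 387 and 367 CPM in control livers (log2 difference 1.43 ± 0.059, adjusted p = 7.03e-21). In both genes the groups did not overlap, with control highest and BPSIP lowest.

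Pck1, the entry step of gluconeogenesis, averaged 2510.0 CPM in 2,4-BPS and 1174 CPM in BPSIP livers (1.10 ± 0.049), and the glucose transporter gene Slc2a2 (GLUT2) 324 CPM in 2,4-BPS and 159 CPM in BPSIP livers (1.02 ± 0.063). Genes of the insulin pathway were higher too: Irs2 (2,4-BPS 23.8 and BPSIP 8.62 CPM, 1.47 ± 0.10), the insulin receptor gene Insr (2,4-BPS 122 and BPSIP 73 CPM, 0.74 ± 0.10) and Foxo1, the transcription factor that insulin excludes from the nucleus (2,4-BPS 57.1 and BPSIP 29.6 CPM, 0.95 ± 0.075). Glycogen synthase of liver, Gys2, was higher (2,4-BPS 181 and BPSIP 97.8 CPM, 0.89 ± 0.054), as was Ppp1r3g, a subunit that steers phosphatase 1 to glycogen, with 6.16, 5.23 and 4.33 CPM in 2,4-BPS livers, against 0.388, 0.291 and 0.194 CPM in BPSIP livers and 12.2, 16.1 and 15.4 CPM in control livers (log2 difference 4.14 ± 0.24, adjusted p = 2.28e-16).

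Of 20 growth hormone and IGF genes 10 were higher and 2 lower (median 0.21, 7 higher and 5 lower by library totals alone). Igf1, the growth factor made under growth hormone, averaged 1129 CPM in 2,4-BPS and 843 CPM in BPSIP livers (0.42 ± 0.056), and Socs2, a feedback inhibitor of that receptor, 34.8 CPM in 2,4-BPS and 18.4 CPM in BPSIP livers (0.92 ± 0.083). Of 42 genes of the urea cycle and amino acid catabolism 26 were higher and 6 lower (median 0.31, 21 higher and 10 lower by library totals alone). Sds, serine dehydratase (2,4-BPS 205 and BPSIP 111 CPM, 0.89 ± 0.06), and Got1, an aminotransferase (2,4-BPS 398 and BPSIP 236 CPM, 0.76 ± 0.052), were higher, and Oat, ornithine aminotransferase, was lower (2,4-BPS 366 and BPSIP 782 CPM, -1.10 ± 0.05).

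**Figure D3:**
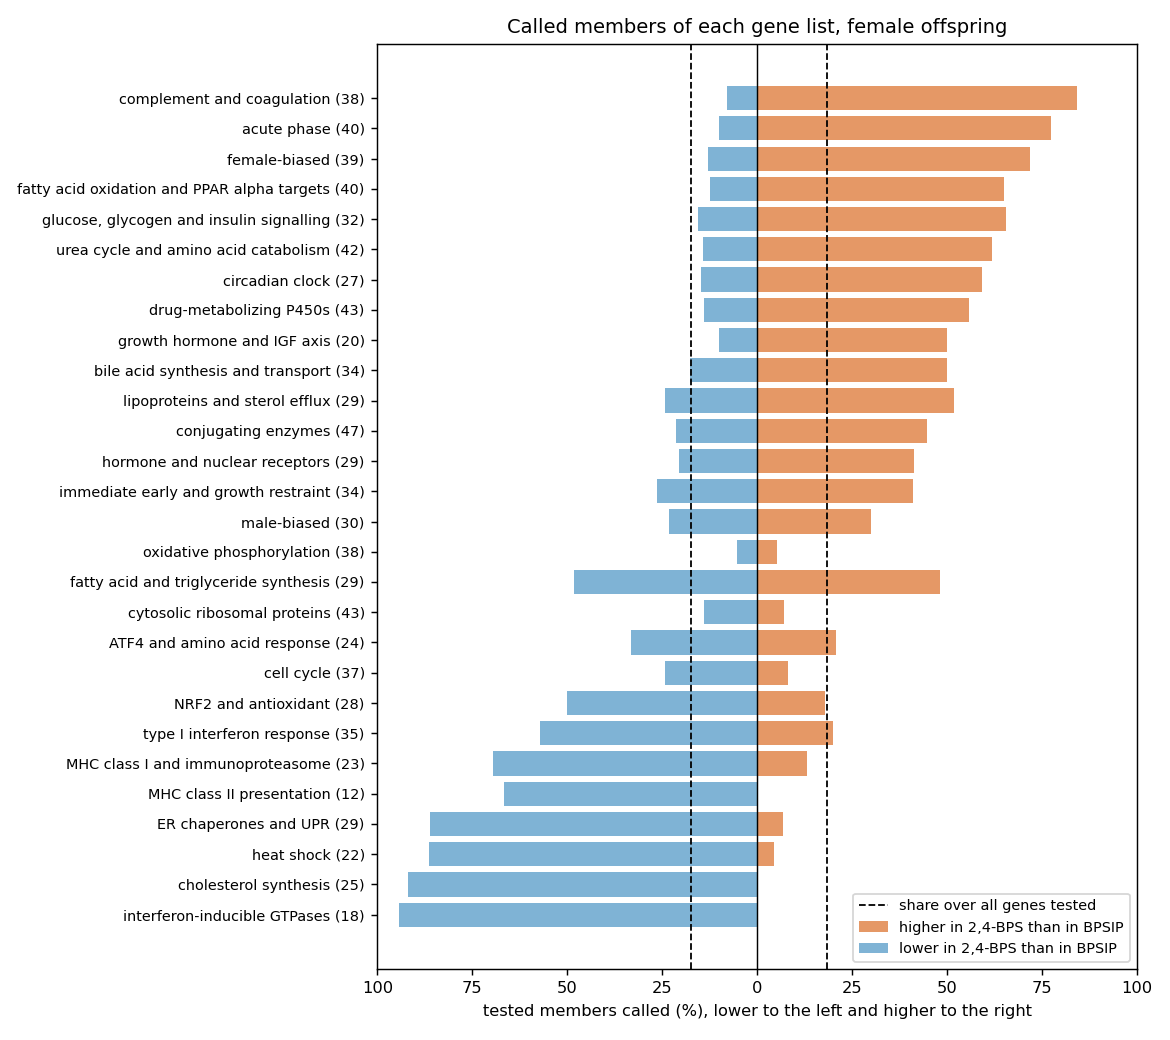
For each of 28 gene lists (y axis, number of tested members in brackets) the bars give the percent of tested members called lower (left) and higher (right) in 2,4-BPS than in BPSIP livers. Dashed lines mark the shares over all genes tested, 17.3% lower and 18.3% higher; interferon-inducible GTPases and cholesterol synthesis reach furthest left, and complement with coagulation furthest right.

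Secreted proteins of the acute phase, complement and coagulation were higher in 2,4-BPS livers. Of 40 acute phase genes 31 were higher and 4 lower (median 0.38), and of 38 complement and coagulation genes 32 were higher and 3 lower (median 0.32, 24 higher and 4 lower by library totals alone). Most of these proteins are made by hepatocytes, and hepatocyte markers differed the same way, with 8 of 11 higher and 0 lower (median 0.30, 8 higher and 2 lower by library totals alone). The part of that shift in these counts was not tested.

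The differences of plasma protein genes were small: Fgb, a fibrinogen chain, averaged 6571 CPM in 2,4-BPS and 4311 CPM in BPSIP livers (0.61 ± 0.058), the clotting factor genes F11 and F7 differed by 0.61 ± 0.064 and 0.52 ± 0.058, and the terminal complement gene C8a by 0.58 ± 0.057. Lbp, which binds bacterial lipopolysaccharide (2,4-BPS 339 and BPSIP 172 CPM, 0.98 ± 0.058), and the receptor genes Il6ra (2,4-BPS 93.5 and BPSIP 40.7 CPM, 1.20 ± 0.10) and Il1r1 differed more. Il1r1, the interleukin 1 receptor, had 79.8, 87 and 77.8 CPM in 2,4-BPS livers, against 15, 19.3 and 18.3 CPM in BPSIP livers and 39.5, 39.2 and 38.9 CPM in control livers (log2 difference 2.22 ± 0.087, adjusted p = 4.6e-21), with no overlap between the groups and 2,4-BPS highest.

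Lcn2, a classical marker, differed less between the compounds than from control. This iron-sequestering protein gene had 228, 247 and 212 CPM in 2,4-BPS livers, against 175, 177 and 182 CPM in BPSIP livers and 38.4, 34.4 and 38.3 CPM in control livers (log2 difference 0.36 ± 0.058, adjusted p = 3.23e-06). Saa1, serum amyloid A, differed by 0.33 ± 0.068, and Saa2 was not called (log2 difference -0.017, 95% interval -0.16 to 0.12, adjusted p = 0.876). Saa1 and Saa2 are near-identical copies. Saa3, an amyloid made mostly outside hepatocytes, was lower (2,4-BPS 13.2 and BPSIP 35.6 CPM, -1.43 ± 0.13). The iron genes parted: Hamp, hepcidin, which blocks iron export, was higher (2,4-BPS 851 and BPSIP 516 CPM, 0.72 ± 0.062), and Tfrc, the transferrin receptor gene, had 32.5, 37.4 and 32.9 CPM in 2,4-BPS livers, against 121, 149 and 133 CPM in BPSIP livers and 11.7, 12.5 and 11.3 CPM in control livers (log2 difference -1.97 ± 0.085, adjusted p = 9.76e-19). The 3 complement members called lower, C1qa, C1qb and C1qc (-0.33 ± 0.067, -0.29 ± 0.059 and -0.22 ± 0.06), are made by macrophages.

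Metallothioneins, small proteins that bind zinc and copper and respond to metals and glucocorticoids, differed widely. Mt2 had 380.2, 408 and 374 CPM in 2,4-BPS livers, against 23.9, 24.7 and 28.3 CPM in BPSIP livers and 305, 330.3 and 297 CPM in control livers (log2 difference 3.92 ± 0.069, adjusted p = 8.53e-32). Mt1 had 447, 473 and 473 CPM in 2,4-BPS livers, against 70.6, 61.6 and 64.2 CPM in BPSIP livers and 347, 356 and 341 CPM in control livers (log2 difference 2.83 ± 0.071, adjusted p = 1.19e-24). The BPSIP livers stood far below the other groups in both genes, and the 2,4-BPS livers somewhat above control. In the Mt2 promoter (chr8:94172468-94172617, plus strand) capitals mark the metal response core, spelled TGCACNC (50 bases before the start, on the reverse strand) and TGCGCNC (128 bases before it). These spellings were added after the levels were seen, and 14.2% and 17% of all genes hold them.
Mt2: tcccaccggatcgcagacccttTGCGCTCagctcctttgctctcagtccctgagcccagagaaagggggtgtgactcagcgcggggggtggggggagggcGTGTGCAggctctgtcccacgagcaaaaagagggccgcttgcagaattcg

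Cfhr3 and Gm4788, genes of a family related to complement on chromosome 1, had some of the largest differences. Cfhr3 had 0.0546, 0.239 and 0.0555 CPM in 2,4-BPS livers, against 8.08, 8.54 and 8.68 CPM in BPSIP livers and 1.49, 1.91 and 1.94 CPM in control livers (log2 difference -6.17 ± 0.31, adjusted p = 2.94e-18). Gm4788, listed by RefSeq also as Cfhrc, had 1.39, 1.85 and 0.999 CPM in 2,4-BPS livers, against 143, 170.5 and 154 CPM in BPSIP livers and 32.5, 29.5 and 33.8 CPM in control livers (log2 difference -6.79 ± 0.11, adjusted p = 5.33e-30). In both genes BPSIP was highest and 2,4-BPS lowest, with no overlap among the 3 groups. Cfhr2 was lower by far less (2,4-BPS 190.0 and BPSIP 259.7 CPM, -0.45 ± 0.059). These genes are alike in sequence, and reads may be split among them.

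Drug-metabolizing enzymes were mostly higher in 2,4-BPS livers, with named exceptions. Of 43 P450 genes and partners 24 were higher and 6 lower (median 0.28, 21 higher and 12 lower by library totals alone). Por, the reductase that supplies electrons to all microsomal P450s, had 1068, 1152 and 1022 CPM in 2,4-BPS livers, against 365, 382 and 408 CPM in BPSIP livers and 701, 691 and 689 CPM in control livers (log2 difference 1.49 ± 0.057, adjusted p = 8.99e-22). The receptor genes Nr1i2 (PXR, 2,4-BPS 147 and BPSIP 71.6 CPM, 1.03 ± 0.056) and Nr1i3 (CAR, 2,4-BPS 255 and BPSIP 165 CPM, 0.62 ± 0.055), which sense foreign compounds, were higher, as was the CAR target Cyp2b10 (2,4-BPS 41.7 and BPSIP 22.1 CPM, 0.92 ± 0.094).

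In the Cyp3a cluster, Cyp3a13 had 332, 329.6 and 305 CPM in 2,4-BPS livers, against 98.4, 109.9 and 113 CPM in BPSIP livers (log2 difference 1.59 ± 0.059, adjusted p = 3.5e-22), but Cyp3a11, the textbook PXR target, had 649.8, 669 and 622 CPM in 2,4-BPS livers, against 1256, 1426 and 1419 CPM in BPSIP livers (log2 difference -1.08 ± 0.063, adjusted p = 8.56e-16). Cyp1a2, a target of the aryl hydrocarbon receptor, was not called (log2 difference 0.11, 95% interval 0.0038 to 0.22, adjusted p = 0.103). Cyp26a1, which clears retinoic acid, had 2.62, 4.43 and 3.33 CPM in 2,4-BPS livers, against 31.3, 35.3 and 34.6 CPM in BPSIP livers and 5.08, 4.82 and 4.03 CPM in control livers (log2 difference -3.29 ± 0.14, adjusted p = 3.14e-20). BPSIP stood above both other groups, which overlapped.

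Of 47 conjugating enzymes 21 were higher and 10 lower (median 0.11, 15 higher and 15 lower by library totals alone), with the sulfotransferase genes Sult1d1 (2,4-BPS 347 and BPSIP 157 CPM, 1.15 ± 0.057) and Sult5a1 (2,4-BPS 76.8 and BPSIP 37.5 CPM, 1.03 ± 0.071) among the higher. Of 28 NRF2 targets and antioxidant genes 5 were higher and 14 lower (median -0.21, 2 higher and 20 lower by library totals alone). Srxn1, sulfiredoxin (2,4-BPS 35.2 and BPSIP 66.9 CPM, -0.93 ± 0.068), the glutathione reductase gene Gsr (2,4-BPS 45.9 and BPSIP 80 CPM, -0.80 ± 0.058) and the thioredoxin reductase gene Txnrd1 (2,4-BPS 116 and BPSIP 167 CPM, -0.52 ± 0.054) were lower.

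Of 34 bile acid genes 17 were higher and 6 lower (median 0.18, 14 higher and 11 lower by library totals alone). Cyp7a1, the rate-limiting enzyme, had 376, 369.6 and 353 CPM in 2,4-BPS and 376, 444 and 417 CPM in BPSIP livers, with overlapping groups (log2 difference -0.17 ± 0.06, adjusted p = 0.0262). Its call was lost without 2,4-BPS replicate 3 and without BPSIP replicate 2 or 3 (highest adjusted p = 0.206). The enzymes Cyp8b1 (2,4-BPS 307 and BPSIP 206 CPM, 0.57 ± 0.057), Cyp27a1 (2,4-BPS 460.1 and BPSIP 278 CPM, 0.73 ± 0.049) and Cyp39a1 (2,4-BPS 75.8 and BPSIP 28.9 CPM, 1.39 ± 0.068) were higher. Abcg5 and Abcg8, whose products pair into the sterol exporter of bile, were higher together, Abcg5 with 119 CPM in 2,4-BPS and 60.5 CPM in BPSIP livers (0.97 ± 0.059) and Abcg8 with 103 CPM in 2,4-BPS and 43.5 CPM in BPSIP livers (1.24 ± 0.06).

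Among hormone and nuclear receptors 12 of 29 tested members were higher and 6 were lower (median 0.043, 8 higher and 8 lower by library totals alone). Esr1, oestrogen receptor alpha, the receptor through which bisphenols are best known to act, had 57.5, 60.6 and 52.3 CPM in 2,4-BPS livers, against 32.5, 35.5 and 32.7 CPM in BPSIP livers and 24.1, 20.7 and 20 CPM in control livers (log2 difference 0.76 ± 0.13, adjusted p = 0.000111). The groups did not overlap. Egfr (2,4-BPS 299 and BPSIP 152 CPM, 0.97 ± 0.064), the leptin receptor gene Lepr (2,4-BPS 13.4 and BPSIP 5.15 CPM, 1.38 ± 0.12) and the LIF receptor gene Lifr (2,4-BPS 848 and BPSIP 545 CPM, 0.64 ± 0.058) were higher.

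Genes with a sex bias in mouse liver, driven by the rhythm of growth hormone, were counted by the direction of their bias. Of 39 female-biased genes 28 were higher and 5 lower (median 0.53, 24 higher and 8 lower by library totals alone), with Vldlr the lowest (-2.09). Cux2, a female-specific repressor of male genes, had 57.1, 59.8 and 60.6 CPM in 2,4-BPS livers, against 18, 16.6 and 16.2 CPM in BPSIP livers and 42.8, 42.6 and 45.6 CPM in control livers (log2 difference 1.80 ± 0.072, adjusted p = 4.14e-21). Cyp2a4 was higher with it (2,4-BPS 1651 and BPSIP 670.3 CPM, 1.30 ± 0.057). Of 30 male-biased genes 9 were higher and 7 lower (median 0.049, 7 higher and 9 lower by library totals alone). The male-biased list thus did not fall as a set. Mup15 had its largest difference (4.03 ± 0.41), and Elovl3 (2,4-BPS 12.3 and BPSIP 4.14 CPM, 1.57 ± 0.14) and Mup3 (2,4-BPS 3383 and BPSIP 1837 CPM, 0.88 ± 0.056) were higher as well. Mup15 varied widely among control livers, at 347, 546 and 1140 CPM.

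Of 27 clock genes 16 were higher and 4 lower (median 0.33, 11 higher and 5 lower by library totals alone). Arntl (BMAL1), the driver of the clock, was lower (2,4-BPS 4.38 and BPSIP 8.05 CPM, -0.88 ± 0.13), and its targets and repressors Nr1d1 (2,4-BPS 36.1 and BPSIP 24.4 CPM, 0.56 ± 0.076), Dbp (2,4-BPS 63.4 and BPSIP 51.6 CPM, 0.30 ± 0.068; adjusted p = 0.0948 by library totals) and Ciart (2,4-BPS 14.1 and BPSIP 7.85 CPM, 0.84 ± 0.12) were higher. The members with the smallest p were Noct, which was lower (-0.86), and Coq10b (0.68) and Nfil3 (0.79), which were higher. Per1 was not called (log2 difference 0.063, 95% interval -0.10 to 0.22, adjusted p = 0.578). Rgs16, a brake on G protein signals whose liver level is known to swing with the clock and with fasting, had 102, 108 and 102 CPM in 2,4-BPS livers, against 6.36, 6.16 and 6.1 CPM in BPSIP livers and 176, 177 and 174 CPM in control livers (log2 difference 4.06 ± 0.074, adjusted p = 1.49e-31). The labels give no clock time of sampling. The part of time of day or of feeding in these differences, and in those of lipid and glucose genes, was not tested.

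Smaller groups gave mixed counts. Of 24 ATF4 targets 5 were higher and 8 lower (median -0.18, 4 higher and 11 lower by library totals alone). Their log2 differences ran from -2.82 to 3.27, and Vldlr, also a member of this list, was lower (-2.09). Chac1, which degrades glutathione, had 8.16, 6.49 and 7.13 CPM in 2,4-BPS livers, against 0.606, 0.687 and 0.97 CPM in BPSIP livers (log2 difference 3.27 ± 0.26, adjusted p = 9.36e-13), and Trib3 was higher too (2,4-BPS 5 and BPSIP 1.34 CPM, 1.90 ± 0.22). Of 34 immediate early and growth restraint genes 14 were higher and 9 lower (median 0.049, 10 higher and 10 lower by library totals alone). The cell cycle inhibitor gene Cdkn1a (p21) was higher (2,4-BPS 13.7 and BPSIP 5.72 CPM, 1.26 ± 0.11) and Jun lower (2,4-BPS 11.7 and BPSIP 25.6 CPM, -1.14 ± 0.10).

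Of 37 cell cycle genes 3 were higher and 9 lower (median -0.016), with the helicase subunit genes Mcm3, Mcm5 and Mcm6 lower (-0.78 ± 0.14, -1.05 ± 0.19 and -1.08 ± 0.20), Tk1 higher (0.94 ± 0.079) and Mki67, the marker of dividing cells, not called (log2 difference -0.34, 95% interval -0.65 to -0.029, adjusted p = 0.0837). Mki67 was called lower by library totals, in a fit of the 6 libraries and without 2,4-BPS replicate 1 (lowest adjusted p = 0.0134). Oxidative phosphorylation had 2 higher and 2 lower of 38 members (median 0.057, 0 higher and 10 lower by library totals alone), and cytosolic ribosomal proteins 3 higher and 6 lower of 43 (median -0.093, 3 higher and 21 lower by library totals alone), both under the shares over all genes by TMM. Ribosomal protein genes have many pseudogenes, and Rps18 (1.47 ± 0.14) and Rpl21, among the largest differences (2,4-BPS 16 and BPSIP 1.37 CPM, 3.54 ± 0.18), may hold reads of copies.

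Other cell types of the liver did not all move with the immune markers. Of 18 sinusoidal endothelial markers 14 were higher in 2,4-BPS livers and 0 lower (median 0.42, 10 higher and 0 lower by library totals alone), among them the scavenger receptor genes Stab2 (2,4-BPS 128 and BPSIP 67.6 CPM, 0.92 ± 0.056) and Stab1 (2,4-BPS 68.8 and BPSIP 41.2 CPM, 0.74 ± 0.074). Of 20 stellate cell and matrix markers 8 were higher and 6 lower (median 0.12, 7 higher and 8 lower by library totals alone), with Col1a1, a collagen of fibrosis, lower (2,4-BPS 9.58 and BPSIP 19.5 CPM, -1.02 ± 0.12) and Reln higher (2,4-BPS 80.7 and BPSIP 53.6 CPM, 0.59 ± 0.064). Of 10 cholangiocyte markers 1 was higher and 1 lower, and of 11 erythroid markers 1 was higher and 3 lower. Over all 13874 genes tested 18.3% were higher, 17.3% were lower and 8943 genes were not called, so these small counts do not show either cell type as unmoved.

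Skeletal muscle transcripts were low and uneven. Their sum was 18 to 59.5 CPM in 2,4-BPS livers, 14.3 to 18.1 CPM in BPSIP livers and 8.52 to 19.6 CPM in control livers, 4 of 11 were called higher, and Myh4 had 2.07, 1.17 and 0.305 CPM in 2,4-BPS livers, against 0.0485, 0 and 0.0832 CPM in BPSIP livers. The 2,4-BPS libraries differed several-fold among themselves, and without 2,4-BPS replicate 1 the count was 1. Of 5 tested adipocyte markers 1 was higher and 2 were lower, and of 3 tested pancreatic acinar markers 1 was higher and 0 were lower. The part of such tissue in other results was not tested.

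Several of the largest differences were in genes with few counts. Mup15 (57089 counts in 2,4-BPS and 3819 in BPSIP libraries) and Zbtb16 (5633 in 2,4-BPS and 478 in BPSIP libraries) were not among those. Higher in 2,4-BPS livers, Kcnj16, a potassium channel gene, had 2.32, 2.12 and 2.44 CPM in 2,4-BPS livers, against 0.0243, 0.0264 and 0.111 CPM in BPSIP livers (5.36 ± 0.48), and Igsf23 7.31, 7.15 and 7.88 CPM in 2,4-BPS livers, against 0.388, 0.185 and 0.61 CPM in BPSIP livers (4.24 ± 0.29). Nox4, a hydrogen peroxide-making oxidase (2,4-BPS 3.15 and BPSIP 0.208 CPM, 3.90 ± 0.36), Crym, a thyroid hormone-binding protein (2,4-BPS 3.02 and BPSIP 0.261 CPM, 3.52 ± 0.37), and Mup15 of the major urinary protein cluster (2,4-BPS 541 and BPSIP 33.2 CPM, 4.03 ± 0.41) followed. Control livers ran from 347 to 1140 CPM for Mup15. Zbtb16 (PLZF), a transcription factor known to be induced by glucocorticoids, had 56.4, 54.3 and 48.5 CPM in 2,4-BPS livers, against 2.86, 5.02 and 4.71 CPM in BPSIP livers and 31.7, 27.1 and 30.5 CPM in control livers (log2 difference 3.67 ± 0.12, adjusted p = 1.54e-19). Nlrp12, a sensor that restrains inflammation, averaged 59.3 CPM in 2,4-BPS and 11 CPM in BPSIP livers (2.43 ± 0.081).

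Among the largest differences on the lower side was that of Chil1. Chil1, a chitinase-like protein, had 1.55, 1.35 and 1.19 CPM in 2,4-BPS livers, against 31.9, 38.1 and 31.9 CPM in BPSIP livers and 1.6, 1.42 and 0.995 CPM in control livers (log2 difference -4.63 ± 0.40, adjusted p = 2.13e-06). Clec4e (Mincle), a receptor for mycobacterial lipid, had 0.164, 0.209 and 0.805 CPM in 2,4-BPS livers, against 7.42, 8.7 and 6.9 CPM in BPSIP livers (log2 difference -4.27 ± 0.41, adjusted p = 2.13e-10), and Nos2, inducible nitric oxide synthase, 0.709, 0.209 and 0.167 CPM in 2,4-BPS livers, against 3.32, 4.73 and 4.96 CPM in BPSIP livers (log2 difference -3.56 ± 0.53, adjusted p = 2.32e-06). BPSIP livers stood apart from both other groups in these genes. Gpnmb (2,4-BPS 0.574 and BPSIP 7.72 CPM, -3.74 ± 0.40), Pla2g2d (2,4-BPS 0.115 and BPSIP 2.88 CPM, -4.62 ± 0.60) and Lyz1 (2,4-BPS 0.491 and BPSIP 9.99 CPM, -4.35 ± 0.68), which may share reads with Lyz2, were lower too.

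Srp54a averaged 0.131 CPM in 2,4-BPS and 3.74 CPM in BPSIP livers (-4.79 ± 0.42) and has near copies in the genome. Dmbt1, a mucosal scavenger protein, varied widely, with 0.273, 1.32 and 0.0833 CPM in 2,4-BPS livers, 3.15, 13.1 and 18.8 CPM in BPSIP livers and 1.44, 34 and 4.61 CPM in control livers (log2 difference -4.42 ± 1.44, adjusted p = 0.0353). Its call was lost without any single 2,4-BPS library and without BPSIP replicate 2 or 3 (highest adjusted p = 0.111). Gdpd3, a lysophospholipase D, was high in both compounds against control and did not pass the test between them, with 7.99, 7.24 and 10.3 CPM in 2,4-BPS livers, 10.8, 9.44 and 10.1 CPM in BPSIP livers and 0.136, 0.327 and 0.288 CPM in control livers (log2 difference -0.25, 95% interval -0.65 to 0.15, adjusted p = 0.351).

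**Figure D4:**
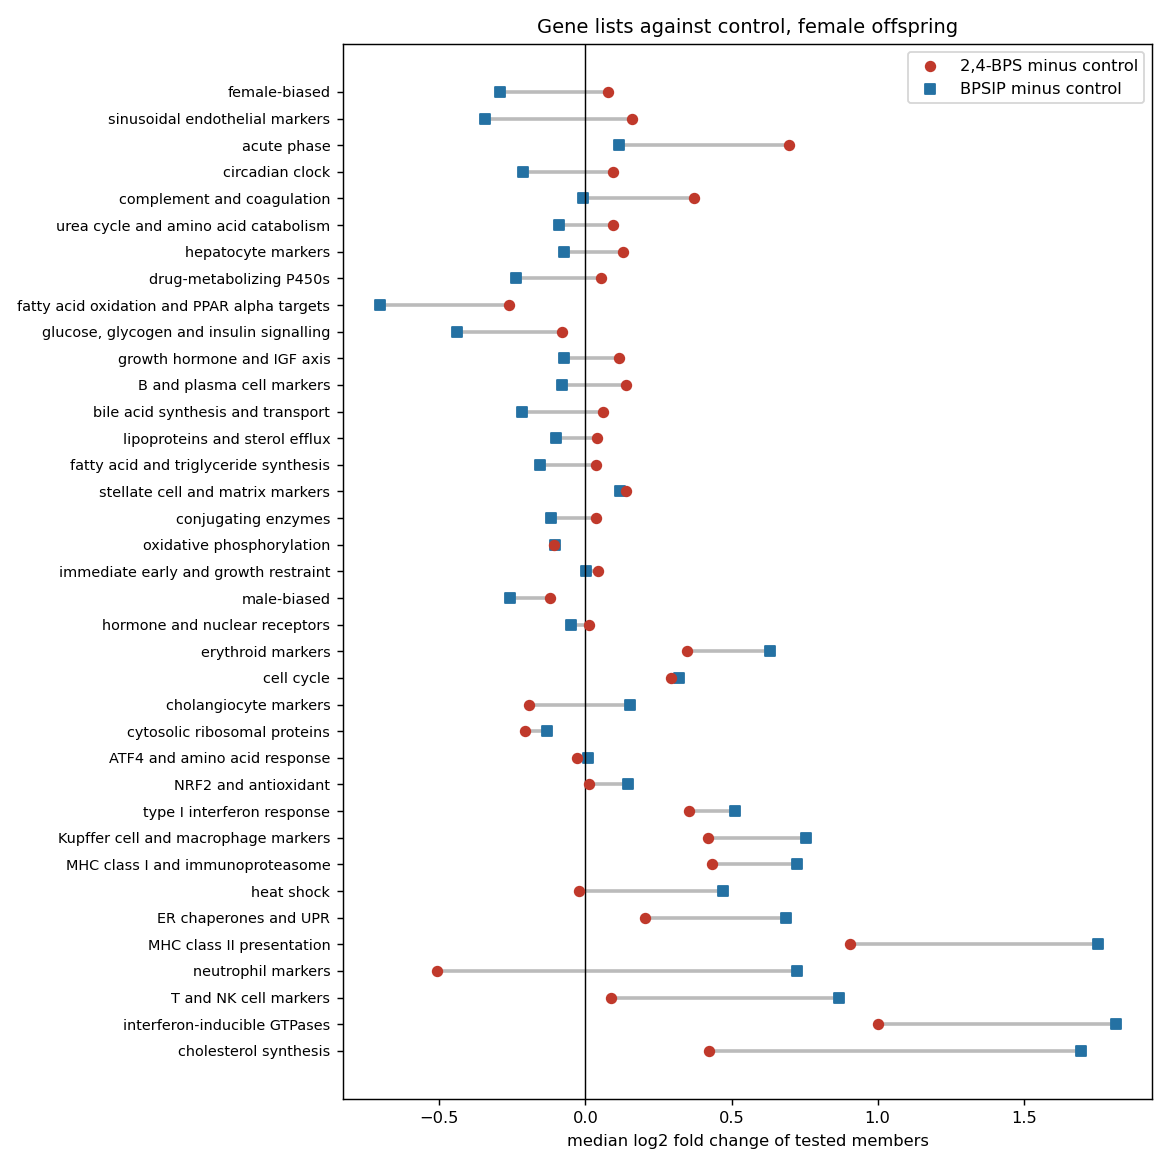
Median log2 fold change of the tested members of each gene list (y axis) in 2,4-BPS livers (circles) and in BPSIP livers (squares), each minus the same 3 control livers (x axis). For cholesterol synthesis the medians are 0.42 in 2,4-BPS and 1.70 in BPSIP livers, for acute phase genes 0.70 in 2,4-BPS and 0.11 in BPSIP livers.

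Set beside the shared controls, the lists fall into a few arrangements. Interferon-inducible GTPases, class II genes and macrophage markers had medians above control in both compounds, with the smaller median in 2,4-BPS (macrophage markers 0.42 in 2,4-BPS and 0.76 in BPSIP). Heat shock genes had -0.022 in 2,4-BPS and 0.47 in BPSIP. Glucose and insulin genes had -0.081 in 2,4-BPS and -0.44 in BPSIP, and female-biased genes 0.076 in 2,4-BPS and -0.29 in BPSIP. Acute phase genes had 0.70 in 2,4-BPS and 0.11 in BPSIP, and complement and coagulation genes 0.37 in 2,4-BPS and -0.0095 in BPSIP. Neutrophil markers had -0.51 in 2,4-BPS and 0.72 in BPSIP, on opposite sides of control.

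The same pair of compounds was compared in male offspring, and the difference between the sexes was tested itself, as the female minus the male value of 2,4-BPS minus BPSIP, in a fit of all 30 libraries. Of 14131 genes 2595 had a positive difference (18.4%) and 2626 a negative one (18.6%). Y-linked genes summed to 126 to 145 CPM in the male 2,4-BPS and 148 to 155 CPM in the male BPSIP libraries. The libraries labelled male control, at 80.3 to 91.6 CPM, stand apart from these. They enter no contrast here, and a fit of the 12 libraries alone gave 2714 positive and 2533 negative genes.

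Cholesterol synthesis differed between the sexes in 25 of 25 genes, all negative: the list median was -1.27 in females and 0.72 in males. Hmgcs1 had 224, 206 and 215 CPM in male 2,4-BPS livers, against 83.1, 84.5 and 83.9 CPM in male BPSIP livers, a log2 difference of 1.36 against -2.01 in females in the same fit (difference between the sexes -3.37 ± 0.071, adjusted p = 1.8e-45). ER chaperones had a negative difference in 26 of 29 genes and a positive one in 1 (medians -0.52 in females and 0.82 in males), and heat shock genes a negative one in 19 and a positive one in 1 of 22 (medians -0.50 in females and 0.70 in males).

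The fatty acid oxidation list had a positive difference in 35 and a negative one in 2 of 40 genes (medians 0.25 in females and -0.47 in males). Complement and coagulation genes had a positive difference in 26 and a negative one in 1 of 38 (medians 0.32 in females and -0.017 in males). For acute phase genes both signs occurred, 12 positive and 19 negative of 39 (medians 0.36 in females and 0.41 in males). Class II genes had 7 negative and 0 positive of 12 (medians -0.74 in females and -0.0084 in males), and H2-Eb1 was lower in 2,4-BPS livers of both sexes (-2.03 in females and -1.25 in males). By library totals alone the split over all genes was 1846 positive and 3667 negative.

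**Figure D5:**
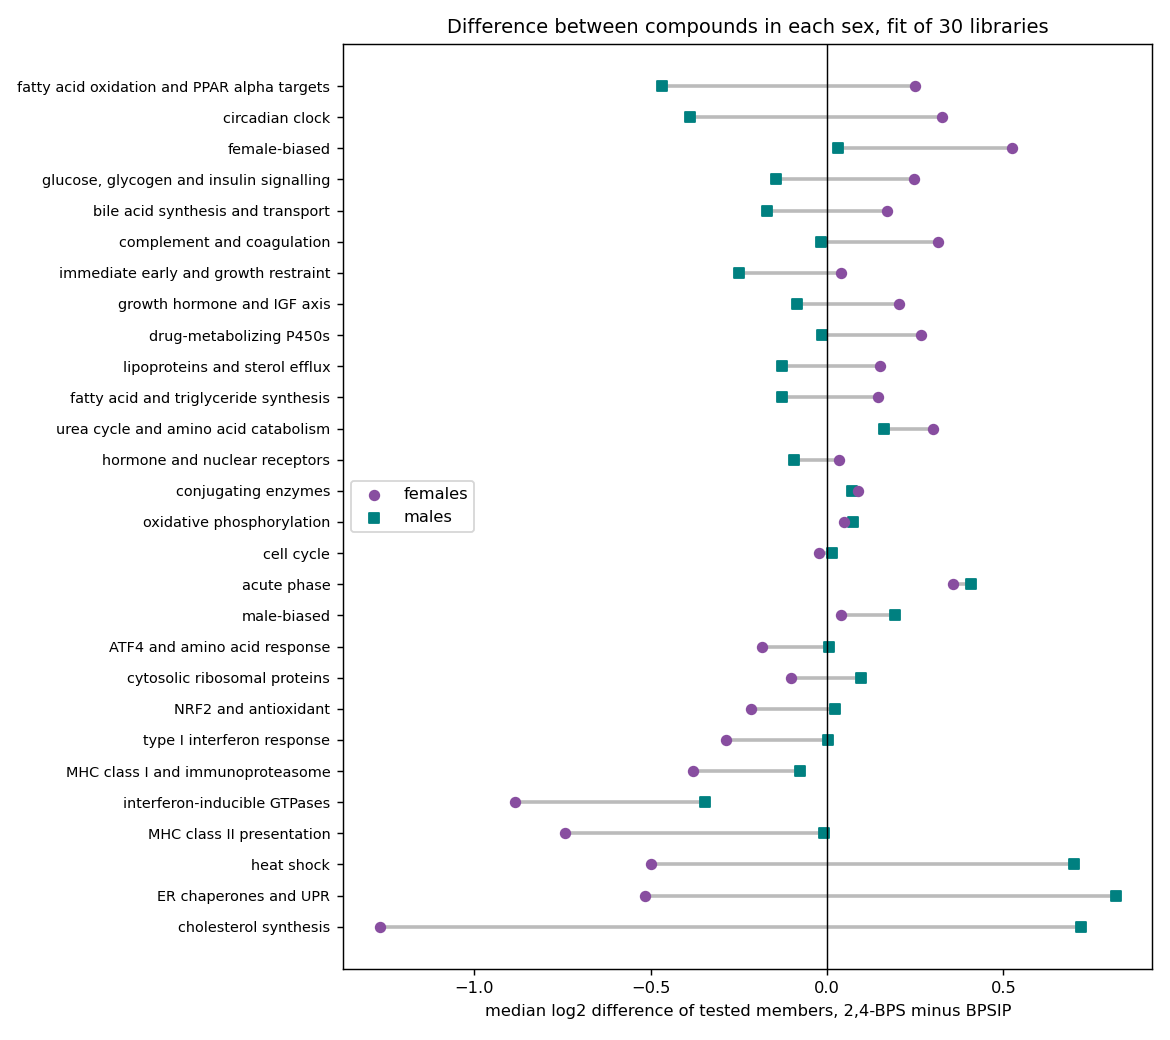
Median log2 difference, 2,4-BPS minus BPSIP, of the tested members of 28 gene lists (y axis) in females (circles) and in males (squares), from the fit of 30 libraries (x axis). Cholesterol synthesis, ER chaperones and heat shock genes lie below 0 in females and above 0 in males, and fatty acid oxidation the other way round; acute phase genes lie at 0.36 in females and 0.41 in males.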

How the data were processed

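Messenger RNA of 30 mouse livers was sequenced, and 6 female libraries are compared here. The deposited table of counts per gene was made by the authors with HISAT2 and HTSeq, per the submitters' processing notes, which also name DESeq2 and R 3.2.0; the build, the annotation and any use of strand are not stated in those notes or headers. The deposited FPKM table, in the authors' unit of fragments per length and depth, was used only to check that it follows from the counts and a length per gene (largest relative deviation 2.67e-06).

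Counts were fitted with edgeR 4.0.16 (R 4.3.3, limma 3.58.1), with TMM factors of 0.928 to 1.09, filterByExpr and the robust quasi-likelihood test, over the 15 female libraries. Benjamini-Hochberg adjustment was over all genes tested, and each adjusted p in the text comes from this fit unless another is named. Standard errors were derived from the test, as the size of the log2 difference divided by the square root of its F statistic. They are approximate, above all for genes of few counts. Intervals in brackets were built from these errors to cover 95% under the same fit. The difference between the sexes came from a fit of 30 libraries. The steps were tested on simulated data. The alternatives were RLE factors, library totals alone, DESeq2 1.42.0, no filter, a minimum log2 fold of 1, a block for the replicate number, other sets of libraries in the fit and leaving out each library.

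The genes named were the 10 largest differences each way whose libraries did not overlap, at a mean level of 1 CPM or more and leaving out predicted models; for each list with at least 3 called members, the 3 with the smallest p; a panel; and the 3 largest sex differences each way. Others were added after their values were seen, Gm4788, Cfhr2 and the metal words of the promoter search among them. Some genes of the lists are not reported here by name. The members and lists were chosen with earlier results of these data known. Same-numbered livers of the groups did not deviate together (correlations -0.00824, -0.0222 and -0.0802). With so few livers this cannot settle whether the numbers pair them, and the main fit took them as unpaired. Counting error limits genes of few counts. Promoters were read from RefSeq tables of GRCm38.p6, and figures were drawn with matplotlib 3.10.9.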

Additional observations from a re-analysis of the deposited data

Results flagged for a closer look

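The difference between 2,4-BPS and BPSIP was itself tested between the sexes by edgeR over 30 libraries, and 2595 genes had a positive and 2626 a negative female minus male difference. In Rgs16 it was 6.64688: 2,4-BPS livers were higher in females (log2 difference 4.05) and lower in males (-2.59), with 13.4, 17.1 and 14.7 CPM in male 2,4-BPS livers, against 85.2, 93.4 and 94.2 CPM in male BPSIP livers. In Kcnj16 it was 6.14357, with 0.65, 1.4 and 0.985 CPM in male 2,4-BPS livers, against 1.64, 2.13 and 1.49 CPM in male BPSIP livers.

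Negative differences were -8.78086 in Srp54a, -7.83555 in Clec4e and -7.27825 in Psmc3ip, a recombination cofactor. Srp54a had 0.712, 0.528 and 0.478 CPM in male 2,4-BPS livers, against 0.0328, 0.0313 and 0.0339 CPM in male BPSIP livers. Clec4e had 0.279, 0.217 and 0.388 CPM in male 2,4-BPS livers, against 0, 0.0627 and 0 CPM in male BPSIP livers. The male BPSIP levels of both genes were near or under 1 count per library, so the sizes rest on few counts. Psmc3ip had 0, 0.058 and 0.271 CPM in female 2,4-BPS livers, against 2.04, 1.24 and 2.23 CPM in female BPSIP livers, and 1.92, 2.77 and 2.63 CPM in male 2,4-BPS livers, against 0.296, 0.188 and 0.272 CPM in male BPSIP livers. Its female 2,4-BPS libraries held few counts, so this size is uncertain too, and it ran from -9.14 to -6.7 over the alternatives.

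In Hsd3b1, a steroid dehydrogenase with near copies, the difference was 6.35625. Females had 30.7, 33.9 and 30.4 CPM in 2,4-BPS livers, against 4.54, 4.43 and 5.92 CPM in BPSIP livers, and males 0, 0 and 0 CPM in 2,4-BPS livers, against 0, 0.125 and 0 CPM in BPSIP livers. The male libraries held at most a few counts of this gene, and DESeq2 gave an adjusted p of 0.9999.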

How the results depend on the processing

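By library totals alone 1449 genes were higher and 4060 lower in 2,4-BPS than in BPSIP livers, and the median of all genes moved to -0.152. With a minimum log2 fold change of 1, which asks for a larger difference by construction, 104 were higher and 98 lower, and 247 sex differences were positive and 260 negative. Leaving out a library gave 2061 to 2293 higher and 2032 to 2206 lower genes, and 2354 to 2452 positive and 2433 to 2615 negative sex differences. With the replicate number as a block, although no pairing by number is known, 2477 were higher and 2329 lower, and 96.9% of the called genes were shared. The sex differences under the block were 2595 positive and 2607 negative. Under the block 2 muscle and 2 adipocyte markers were called higher. DESeq2 gave 2459 higher and 2498 lower genes. Of 209 called named genes, 199 were called under every alternative besides the minimum fold, 123 were lost with that minimum, and none of those named was reversed. Adgre1, Clec4f and Mki67, not called as reported, were each called in at least 1 alternative. Besides Dmbt1 and Cyp7a1, small list counts moved over 1.5 times on leaving out a library. P450 genes lower were 3 without 2,4-BPS replicate 2 or 3 or BPSIP replicate 2, and so were NRF2 targets higher. Ribosomal genes lower were 1 without replicate 1 of either compound and 10 without 2,4-BPS replicate 3, and 11 in the fits of 6 and of 30 libraries. Immediate early genes lower were 5 without 2,4-BPS replicate 2. Female-biased genes lower were 3 without 2,4-BPS replicate 1 or BPSIP replicate 2 or 3, and bile acid genes lower were 3 without BPSIP replicate 3. Oxidative phosphorylation genes higher were 0 to 4. Counts of 4 or fewer members moved likewise for ER genes higher and for macrophage, cholangiocyte, B cell, neutrophil, erythroid, muscle and adipocyte markers. Depth limits genes at a few counts, such as Kcnj16 and Cfhr3 on their low side.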

Other observations

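The Gm4788 difference of females was near 0 in males, with 1.73, 1.49 and 1.4 CPM in male 2,4-BPS livers, against 1.05, 1.5 and 2.17 CPM in male BPSIP livers (log2 difference -0.026 in males and -6.79 in females; difference between the sexes -6.77 ± 0.25, adjusted p = 5.63e-28, edgeR). The groups overlapped in males. Gm4788 was chosen after its values were seen.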
